A study of Mus musculus with 18 samples.

Results

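NRF2, the transcription factor encoded by Nfe2l2, its repressor Keap1 and 8 of its classical target genes were followed in mouse neural cells given microRNA mimics, synthetic double-stranded copies of mature microRNAs. These 10 genes of the 53342 in the deposited table were picked by their symbols, and the set was chosen from genes whose mix-against-control results in these libraries were already known. Their fold changes, call counts and levels are therefore given as descriptions, without a test. All 10 had 1 row each in the table and passed the filter on low counts in all 3 cell types.

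Treated cells received equal amounts of mimics of miR-99b-3p, of miR-140-5p and of miR-199a-3p, called the mix here. Control cells received the nematode microRNA cel-miR-67, called the control mimic, and none of the libraries analysed here came from untransfected cells or from cells given a single mimic of the 3. All 6 groups shared the lipid reagent Dharmafect 1, a mimic concentration of 25 nM and 24 h of exposure, and each group had 3 libraries of poly(A) RNA. Neuro-2A is a mouse neuroblastoma line that the labels class as neurons, BV-2 is an immortalised mouse microglial line, and both are described as not genetically modified, while the primary astrocytes were wild type (WT). Each line is a single tumour or immortalised lineage, and the labels give neither the age nor the number of animals behind the astrocytes.

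NRF2 is made continuously and destroyed continuously in resting cells, because KEAP1 binds it and presents it to a CUL3 ubiquitin ligase. Oxidants and electrophiles modify cysteines of KEAP1, NRF2 then escapes and enters the nucleus, and with a small MAF partner it binds antioxidant response elements in front of genes for glutathione synthesis, thiol reduction, quinone detoxification and haem breakdown. NRF2 is also known to act on its own gene through such elements. In brain cultures the pathway is known to be most active in astrocytes, which supply neighbouring neurons with glutathione precursors.

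The mature sequences of 2 of the mimicked microRNAs are shown because their seeds, bases 2 to 8, define the sites searched for in the members. They are from RefSeq (GRCm38.p6), with the seed in capitals. The mature miR-199a-3p is encoded at chr9:21496498-21496519 (minus strand) and chr1:162217883-162217904 (plus strand), and miR-99b-3p at chr17:17830232-17830253 (plus strand). The 2 seeds differ, and sites of miR-140-5p and of cel-miR-67 were not analysed here.
miR-199a-3p: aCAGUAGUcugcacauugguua
miR-99b-3p: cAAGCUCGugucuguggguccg

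Matches to the 2 seeds were sought in the longest 3′ UTR annotated by GENCODE M21 (mm10). Gclc held 2 matches to miR-199a-3p, at bases 279 and 1003 of a UTR of 1234 bases, each a 7-base perfect complement of bases 2 to 8. The UTRs of Nfe2l2, Keap1, Srxn1, Txnrd1 and Gsr held no match to either seed. Over the 15280 tested genes with an annotated UTR, 8.38% held a miR-199a-3p match, 2.11% a miR-99b-3p match and 10.2% either. A match is a string of letters and not a measured binding site. The Gclc matches are shown with their flanks, the matched letters in capitals.
Gclc, base 279: actctggagcaACTACTGtctaagcagttt
Gclc, base 1003: cttctaaaataACTACTGtagattaagcca

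The antioxidant response element core TGACNNNGC was searched for on both strands of the RefSeq promoter windows (GRCm38.p6, 250 bases before to 50 after the annotated start). Of the members, 7 had a window in the table, Txnrd1 had 3 of them, and the 9 windows together held the core in 4. These belonged to Nfe2l2 itself, Srxn1, Gclm and Txnrd1. Among all 32851 windows 12.4% held the core. The windows of Keap1, Nqo1 and Osgin1 and the other 2 windows of Txnrd1 did not hold these letters, and Gclc, Hmox1 and Gsr were not in the table. The related AP-1 element TGANTCA, which some antioxidant response elements contain, lay at 2 places in the Srxn1 window and at 1 in the Osgin1 window, against 7.81% of all windows with at least 1. The 4 windows with the core are shown 5′ to 3′ on the strand of the gene, the core in capitals. It lay at bases −240 to −232 from the start in Nfe2l2, 28 to 36 in Srxn1, −134 to −126 in Gclm and −92 to −84 in Txnrd1, on the opposite strand in the last 3 of these.
Nfe2l2, chr2:75704614-75704913, minus strand: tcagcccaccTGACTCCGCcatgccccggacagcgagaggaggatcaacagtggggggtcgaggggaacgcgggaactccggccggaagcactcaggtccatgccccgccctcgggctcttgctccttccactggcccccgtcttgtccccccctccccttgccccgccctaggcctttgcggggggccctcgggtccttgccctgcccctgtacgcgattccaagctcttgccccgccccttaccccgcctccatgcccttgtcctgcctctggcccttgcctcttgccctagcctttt
Srxn1, chr2:152105274-152105573, plus strand: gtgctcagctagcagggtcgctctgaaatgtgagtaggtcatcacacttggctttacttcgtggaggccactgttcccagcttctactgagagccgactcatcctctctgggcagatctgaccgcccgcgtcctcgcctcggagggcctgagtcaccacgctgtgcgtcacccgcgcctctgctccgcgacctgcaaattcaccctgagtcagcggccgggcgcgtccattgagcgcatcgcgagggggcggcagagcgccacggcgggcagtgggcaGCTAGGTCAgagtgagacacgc
Gclm, chr3:122245307-122245606, plus strand: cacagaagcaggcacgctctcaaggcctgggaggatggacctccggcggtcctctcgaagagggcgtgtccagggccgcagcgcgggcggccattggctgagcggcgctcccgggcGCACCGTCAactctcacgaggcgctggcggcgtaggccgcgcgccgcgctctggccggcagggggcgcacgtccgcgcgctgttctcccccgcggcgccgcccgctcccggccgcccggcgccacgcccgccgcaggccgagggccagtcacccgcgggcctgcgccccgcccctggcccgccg
Txnrd1, chr10:82858956-82859255, plus strand: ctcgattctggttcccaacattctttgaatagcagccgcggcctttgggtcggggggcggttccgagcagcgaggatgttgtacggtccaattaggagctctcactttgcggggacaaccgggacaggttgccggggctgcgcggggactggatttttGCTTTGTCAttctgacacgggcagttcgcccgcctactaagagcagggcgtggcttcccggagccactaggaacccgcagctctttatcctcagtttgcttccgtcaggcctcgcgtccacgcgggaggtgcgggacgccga

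Library totals ran between 18.5 and 27.9 M expected counts. Levels below are deposited TPM, a relative abundance scaled for gene length, and log2 fold changes are mix minus control mimic from edgeR with their SE. The labels do not say whether the 3 libraries of a group were separate cultures, so every test weighs a difference against library-to-library spread, possibly a technical one. Replicates are numbered 1 to 3 as in the sample titles, and a replicate number stands for the same library number of the sample descriptions in both arms. Replicate 1 of Neuro-2A stood apart from replicates 2 and 3 in both arms, with a chi-square per degree of freedom of 8.65 to 18.4 against 2.55 to 3.17 between replicates 2 and 3. Same-numbered Neuro-2A replicates deviated together, and this number was a block in that cell type. The control libraries of BV-2 also differed from each other. Their chi-square per degree of freedom was 20.957 between replicates 1 and 2, 13.941 between 2 and 3, and 5.779 between 1 and 3. Between the BV-2 mix libraries it was 1.61 to 2.33, so the spread in BV-2 was unequal between the arms. The part of this unequal spread in the BV-2 calls was not tested. The labelled cell types carried their markers. Tubb3 stood at 415 to 751 TPM in Neuro-2A, Gfap at 4860 to 5680 TPM in astrocytes and Cd68 at 1630 to 1920 TPM in BV-2. All 5 astrocyte markers were at or below 1 TPM in both lines. Map2 of the neuron list went the other way from the rest of that list. It averaged 13.1 ± 0.87 TPM in control Neuro-2A cells and 65.2 ± 1.54 TPM in control astrocytes. The ependymal marker Rsph1 averaged 21.4 ± 0.261 TPM in control Neuro-2A cells. The summed markers of the own cell type were at 778 to 873 TPM in mix-treated and 957 to 1207 TPM in control Neuro-2A cells, and at 6842 to 7424 TPM in mix-treated and 8553 to 9044 TPM in control astrocytes. In BV-2 they were at 3073 to 3160 TPM in the mix arm and 2890 to 3153 TPM in the control arm. Within these sums the markers differed. In astrocytes Aqp4 averaged 732 ± 71.3 TPM with the mix and 1796 ± 92.6 TPM with the control mimic. Aldh1l1 there averaged 676 ± 11.7 TPM with the mix and 685 ± 20.2 TPM with the control mimic. In Neuro-2A Tubb3 averaged 449 ± 29.8 TPM with the mix and 636 ± 100 TPM with the control mimic. Snap25 there averaged 42.8 ± 3.06 TPM with the mix and 43.2 ± 1.01 TPM with the control mimic. The astrocyte cultures also held markers of other cell types. Their ependymal markers (4 of 4 above 1 TPM) summed to 914 to 1047 TPM in the mix arm and 990.1 to 1082 TPM in the control arm. Their oligodendrocyte lineage markers (5 of 5) summed to 781 to 837 TPM in the mix arm and 757 to 786 TPM in the control arm. Neuron markers (4 of 5) summed to 291 to 295 TPM in the mix arm and 275 to 284 TPM in the control arm, and microglial markers (4 of 4) to 194 to 261 TPM in the mix arm and 188 to 212 TPM in the control arm. Among the fibroblast and pericyte markers, Acta2 averaged 1267 ± 124 TPM with the mix and 1733 ± 108 TPM with the control mimic, Col1a1 averaged 38.8 ± 2.59 TPM with the mix and 27.4 ± 1.88 TPM with the control mimic, and Dcn and Lum were near the floor of 1 TPM. The part of these markers in the results below was not tested. In such bulk RNA, fewer cells of a type and less RNA of single markers per cell cannot be told apart.

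Nfe2l2 (ENSMUSG00000015839, chr2:75675513-75704641, minus strand, mm10) was lower in the mix arm of all 3 cell types, and Keap1 was not called in any. In astrocytes Nfe2l2 had 173, 179.6 and 161 TPM in the 3 mix libraries, against 297, 288 and 287 TPM in the 3 control libraries. In BV-2 it had 151, 156 and 155 TPM with the mix, against 231, 220.1 and 235 TPM with the control mimic. In the Neuro-2A line it had 26.7, 37.1 and 37.0 TPM with the mix, against 33.3, 51.0 and 49.3 TPM with the control mimic. The arms stood clear of each other in astrocytes and BV-2. In Neuro-2A they overlapped, and replicate 1 was the lowest in each arm, but every mix library lay below the control library of its own number, by 0.32, 0.46 and 0.42 on the log2 TPM scale for replicates 1, 2 and 3. The log2 fold change was −0.83 ± 0.0389 in astrocytes, −0.64 ± 0.0458 in BV-2 and −0.38 ± 0.0457 in Neuro-2A. Every Neuro-2A library lay below every astrocyte and BV-2 library.

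Keap1 (ENSMUSG00000003308, chr9:21229730-21239361, minus strand) encodes the sensor that holds NRF2 for degradation. It had 63.5, 63.7 and 62.8 TPM in mix-treated and 59.4, 63.0 and 58.7 TPM in control astrocytes. It had 43.6, 42.5 and 41.3 TPM in mix-treated and 39.1, 42.7 and 39.7 TPM in control BV-2 cells. In Neuro-2A the values were 46.7, 49.2 and 48.5 TPM with the mix and 46.3, 50.1 and 46.9 TPM with the control mimic. The arms overlapped in all 3 cell types, and the log2 fold changes were 0.01 ± 0.0356 in astrocytes, −0.00 ± 0.066 in BV-2 (0.07 with limma on TPM) and 0.03 ± 0.038 in Neuro-2A. The median over all genes tested with limma in BV-2 was 0.06. Across the 6 groups Keap1 varied less than Nfe2l2, between group means of 40.5 and 63.3 TPM, against 33.6 and 291 TPM for Nfe2l2.

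**Figure D1:**
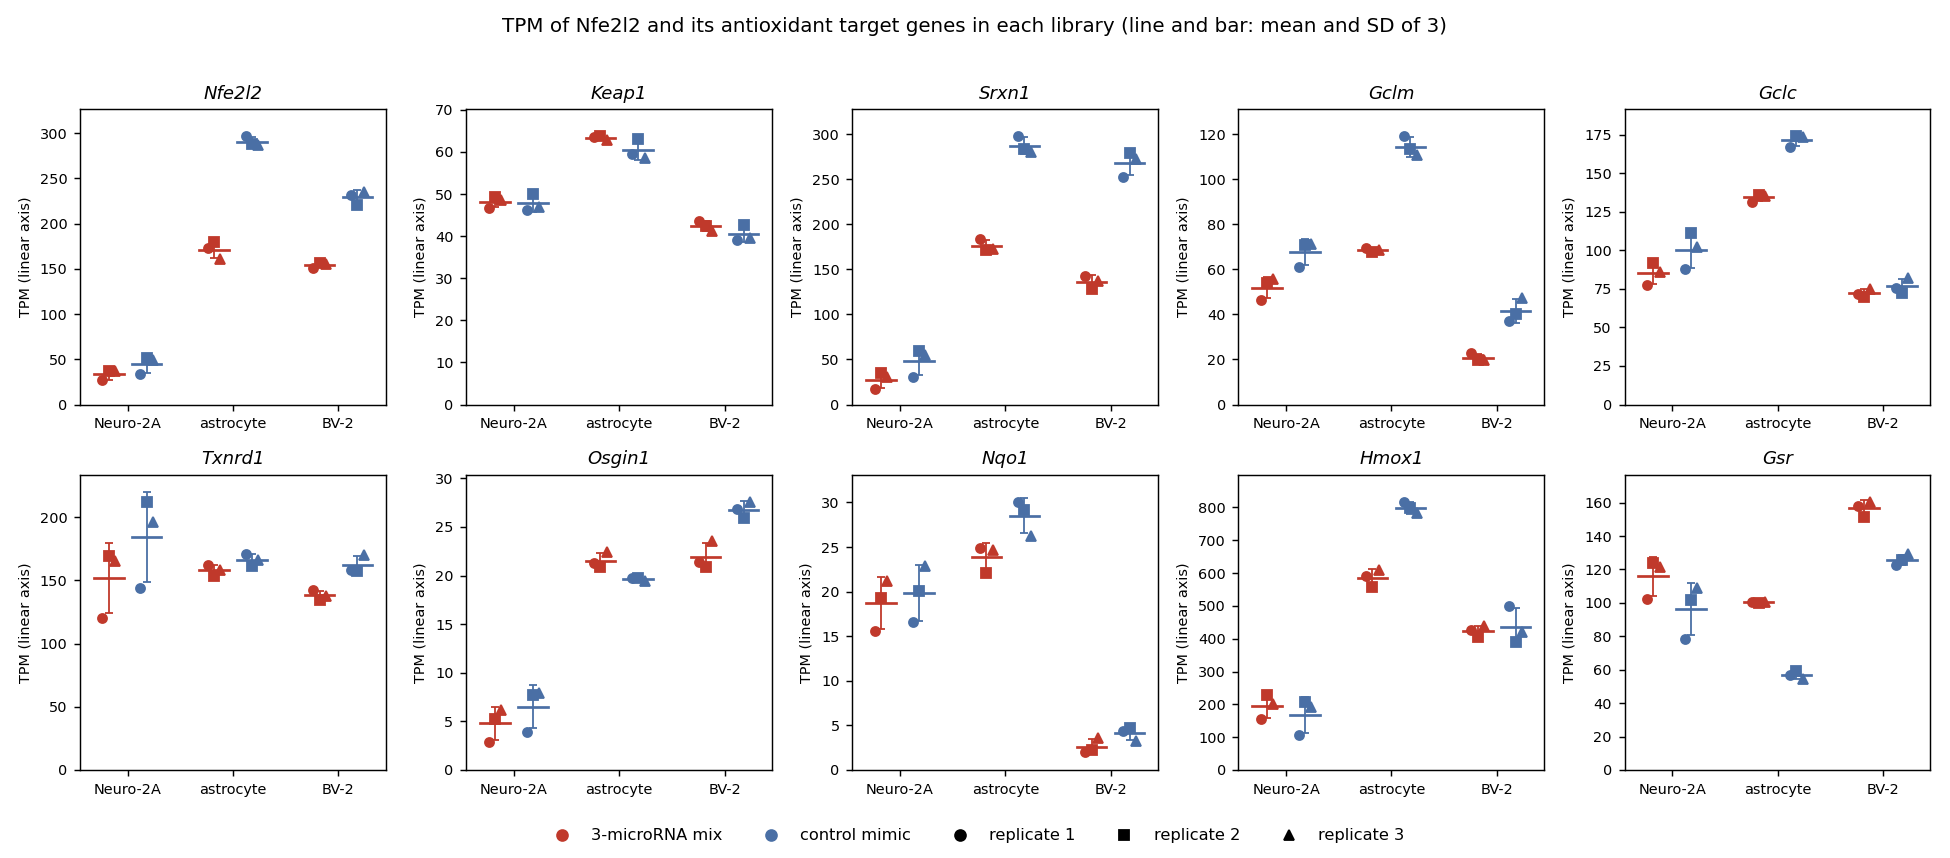
TPM (vertical axes, from 0) of the 10 members in each of the 18 libraries, grouped by cell type with the mix left of the control mimic; points are libraries and bars the group mean with SD (n = 3). Nfe2l2, Srxn1 and Gclm lie lower with the mix in astrocytes and BV-2 without overlap, Gsr lies higher there, and the Keap1 arms overlap in all 3 cell types.

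Glutathione synthesis starts with glutamate-cysteine ligase, whose modifier subunit is encoded by Gclm (ENSMUSG00000028124, chr3:122245557-122270732, plus strand) and whose catalytic subunit by Gclc (ENSMUSG00000032350, chr9:77754535-77794485, plus strand). The miR-199a-3p matches of Gclc are shown above. Gclm fell in all 3 cell types, and Gclc fell in Neuro-2A and astrocytes. In BV-2 Gclm had 22.7, 19.7 and 19.6 TPM with the mix, against 37.1, 40.3 and 47.2 TPM with the control mimic. In astrocytes it had 69.4, 67.5 and 68.7 TPM with the mix, against 119, 113 and 111 TPM with the control mimic. In Neuro-2A it had 46.4, 53.8 and 55.6 TPM with the mix, against 61.2, 70.7 and 71.2 TPM with the control mimic. Gclm was the only member whose arms were apart in all 3 cell types. Its log2 fold change was −1.07 ± 0.0946 in BV-2, −0.80 ± 0.0356 in astrocytes and −0.37 ± 0.0337 in Neuro-2A. A processed pseudogene, Gm6061 (chr3:122256728-122257219), lies on the same strand inside an intron of Gclm and had 77.3% as many counts as Gclm over the libraries, so the split of reads between the 2 rows is uncertain. Its own log2 fold changes were −0.03 ± 0.0368 in Neuro-2A, −0.00 ± 0.0411 in astrocytes and 0.03 ± 0.0582 in BV-2.

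Gclc had 132, 136 and 135 TPM in mix-treated astrocytes, against 167, 174 and 173 TPM in control astrocytes, with no overlap. Neuro-2A cells had 77.6, 92.1 and 86.1 TPM with the mix, against 87.8, 111 and 102 TPM with the control mimic. In BV-2 it had 71.8, 69.8 and 75.1 TPM with the mix, against 75.9, 72.1 and 82.0 TPM with the control mimic. The arms overlapped in the last 2 cell types. The log2 fold changes were −0.42 ± 0.0329 in astrocytes, −0.21 ± 0.0359 in Neuro-2A and −0.15 ± 0.0567 in BV-2, the last of which was not called. Without control replicate 2, the Gclc difference in BV-2 passed the threshold. The Neuro-2A call was lost in an edgeR fit of all 18 libraries without a replicate block.

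Srxn1, Txnrd1 and Gsr encode enzymes that restore oxidised thiols, and they moved in different directions. Srxn1 (ENSMUSG00000032802, chr2:152105516-152111376, plus strand) encodes sulfiredoxin, which repairs over-oxidised peroxiredoxins. It had 142, 128 and 138 TPM in mix-treated BV-2 cells, against 253, 279.6 and 272 TPM in control BV-2 cells. In astrocytes it had 184, 171 and 173 TPM with the mix, against 298, 283 and 281 TPM with the control mimic. Neuro-2A cells had 17.4, 35.1 and 30.6 TPM with the mix, against 30.3, 59.6 and 55.1 TPM with the control mimic. The arms were apart in BV-2 and astrocytes and overlapped in Neuro-2A, where each library was lower than its numbered control by 0.80, 0.76 and 0.85 on the log2 TPM scale. The log2 fold changes were −1.05 ± 0.0679 in BV-2, −0.77 ± 0.0374 in astrocytes and −0.78 ± 0.0486 in Neuro-2A.

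Txnrd1 (ENSMUSG00000020250, chr10:82833951-82897712, plus strand) encodes cytosolic thioredoxin reductase, which keeps thioredoxin reduced. It fell by small amounts in all 3 cell types. In BV-2 it had 142, 135 and 138 TPM with the mix, against 158, 158 and 170.2 TPM with the control mimic. In astrocytes it had 162, 154 and 158 TPM with the mix, against 171, 161 and 166 TPM with the control mimic. Neuro-2A cells had 119.9, 169 and 166 TPM with the mix, against 144, 212 and 196 TPM with the control mimic. The arms were apart in BV-2 alone, and the log2 fold changes were −0.30 ± 0.0504 in BV-2, −0.14 ± 0.0346 in astrocytes and −0.26 ± 0.0309 in Neuro-2A. The BV-2 call was lost without mix replicate 2 or 3, and the astrocyte call was lost with limma on log2(TPM + 1). In the fit of all 18 libraries the Txnrd1 calls of all 3 cell types were lost.

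Gsr (ENSMUSG00000031584, chr8:33652523-33698163, plus strand) encodes glutathione reductase, which regenerates reduced glutathione, and it was the member that rose everywhere. In astrocytes it had 101, 99.7 and 101 TPM with the mix, against 56.7, 59.4 and 54.3 TPM with the control mimic. In BV-2 it had 158, 151 and 161 TPM with the mix, against 123, 126 and 129 TPM with the control mimic. Neuro-2A cells had 102, 124 and 122 TPM with the mix, against 78.6, 102 and 109 TPM with the control mimic. The arms were apart in astrocytes and BV-2 and overlapped in Neuro-2A, where the within-number differences were 0.38, 0.28 and 0.16 on the log2 TPM scale. The log2 fold changes were 0.76 ± 0.0392 in astrocytes, 0.25 ± 0.0523 in BV-2 and 0.29 ± 0.0437 in Neuro-2A. The BV-2 call was lost without any 1 of the 3 mix libraries, without control replicate 3 or in the fit of all 18 libraries. Gsr was thus higher in each cell type, where Gclm and Srxn1 were lower.

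**Figure D2:**
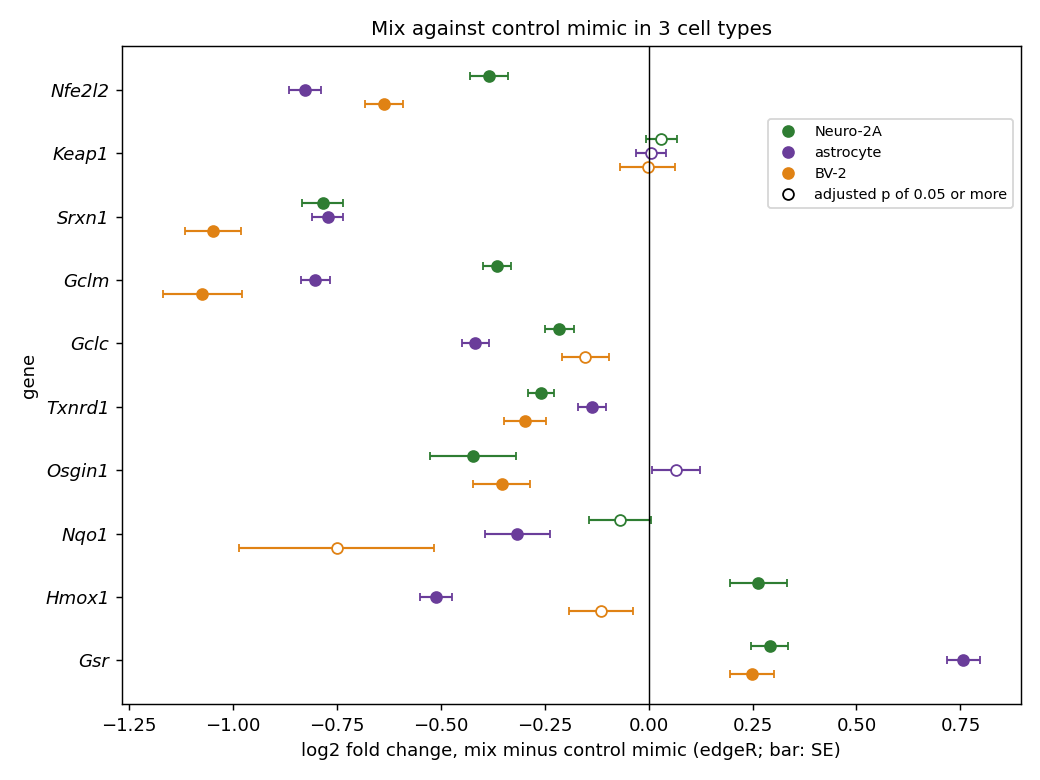
Log2 fold change of each member (horizontal axis, mix minus control mimic, edgeR; bars are SE) in the 3 cell types, with open circles where the adjusted p was 0.05 or more. Nfe2l2, Srxn1, Gclm and Txnrd1 lie left of 0 in all 3 cell types, Gsr lies right of 0 in all 3, and Hmox1 lies on different sides in Neuro-2A and astrocytes.

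Hmox1 (ENSMUSG00000005413, chr8:75093621-75100589, plus strand) encodes haem oxygenase, which breaks haem down to biliverdin, iron and carbon monoxide. It fell in astrocytes and rose in Neuro-2A. Mix-treated astrocytes had 592, 557 and 608 TPM, against 818, 797 and 782 TPM in control astrocytes, with no overlap and a log2 fold change of −0.51 ± 0.038. Mix-treated Neuro-2A cells had 156, 228 and 202 TPM, against 106, 206 and 191 TPM in control cells. The arms overlapped there, the within-number differences were 0.56, 0.14 and 0.08 on the log2 TPM scale with replicate 1 the largest, and the log2 fold change was 0.26 ± 0.0676. That Neuro-2A call was lost with DESeq2, with limma, without the block and in the fit of all 18 libraries. The astrocyte fold change minus the Neuro-2A fold change was −0.74 ± 0.234 in an edgeR fit of all 18 libraries without a replicate block, which did not pass the threshold. In BV-2 the values were 426, 404 and 438 TPM with the mix and 499, 390.4 and 422 TPM with the control mimic, and the log2 fold change of −0.11 ± 0.077 was not called.

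Nqo1 (ENSMUSG00000003849, chr8:107388225-107403206, minus strand) encodes a quinone reductase often used as a reporter of NRF2 activity. It fell in astrocytes, with 24.9, 22.1 and 24.6 TPM in the mix libraries, against 30.1, 29.2 and 26.3 TPM in the control libraries and a log2 fold change of −0.32 ± 0.0775. In Neuro-2A it had 15.5, 19.3 and 21.2 TPM with the mix and 16.6, 20.1 and 22.9 TPM with the control mimic, a log2 fold change of −0.07 ± 0.075 that was not called. Nqo1 was low in BV-2, at 2.61 ± 0.826 TPM with the mix and 4.13 ± 0.775 TPM with the control mimic (SD, n = 3), which rested on 27, 28 and 47 counts with the mix and 55, 61 and 32 counts with the control mimic. Mix replicate 3 lay above the lowest control library, and the log2 fold change of −0.75 ± 0.234 was not called. Without that mix library it was −1.04 and passed the threshold. The astrocyte call of Nqo1 was lost in the fit of all 18 libraries.

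Osgin1 (ENSMUSG00000074063, chr8:119434124-119446256, plus strand) encodes an oxidative stress-induced growth inhibitor. It fell in both lines and was not called in astrocytes. In BV-2 it had 21.4, 20.9 and 23.6 TPM with the mix, against 26.8, 25.9 and 27.6 TPM with the control mimic, with no overlap and a log2 fold change of −0.35 ± 0.0684. In Neuro-2A there were 2.89, 5.27 and 6.22 TPM with the mix, against 3.94, 7.67 and 7.87 TPM with the control mimic, with overlap and a log2 fold change of −0.42 ± 0.104. In astrocytes it had 21.3, 20.9 and 22.4 TPM with the mix, against 19.8, 19.8 and 19.5 TPM with the control mimic, so the arms were apart, but the log2 fold change of 0.07 ± 0.0579 did not pass the threshold. With limma on log2(TPM + 1) it was 0.12 and passed, where the median over all genes tested with limma was 0.07. The BV-2 call was lost without mix replicate 1 or 2. The Neuro-2A call was lost without replicate 2, with DESeq2 and without the block. Both calls were also lost in the fit of all 18 libraries.

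In counts, 7 members were called lower and 1 higher in astrocytes, where 20.6% of all 17770 tested genes were called lower and 19.7% higher. In Neuro-2A 6 were called lower and 2 higher, where 19.5% of 16160 tested genes were called lower and 18.2% higher. In BV-2 5 were called lower and 1 higher, where 5.41% of 14961 tested genes were called lower and 4.61% higher. The median log2 fold change of the 10 members was −0.37 in astrocytes, −0.24 in Neuro-2A and −0.33 in BV-2, beside 0.01, 0.01 and −0.00 over all tested genes of these cell types. TPM of the arms did not overlap for 8 members in astrocytes (52.4% of all tested genes), 1 in Neuro-2A (32.5%) and 6 in BV-2 (32.8%). Since the members were picked with these contrasts known, nothing is read from these shares. Without the replicate number as a block, Gclm was the only 1 of the 8 called members in Neuro-2A that still passed the threshold. Over all tested genes, 2083 were called there without the block, against 6101 with it. Without mix replicate 2, the 6 calls in BV-2 became 3, and the calls over all genes in that fit are not given here. Limma on TPM, which differs from edgeR on counts in test, filter and scaling, split all called genes otherwise. It called 2480 lower and 5018 higher in astrocytes, against 3652 lower and 3497 higher with edgeR, and 446 lower and 1002 higher in BV-2, against 809 lower and 689 higher with edgeR. In Neuro-2A it called 2776 lower and 2071 higher, against 3152 lower and 2949 higher with edgeR. With limma the median log2 fold change over all tested genes was 0.07 in astrocytes, 0.06 in BV-2 and −0.01 in Neuro-2A. The overlaps of arms were judged on the same TPM.

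Nfe2l2, Srxn1, Gclm and Txnrd1 were called lower in all 3 cell types, as were 394 (3.12%) of the 12626 genes tested in all of them. Gsr was called higher in all 3, as were 273 genes (2.16%). The 4 members that were lower in all 3 cell types were also the 4 whose promoter windows held the element core. This match was seen after both were known and over 7 members with a window. Txnrd1 had 3 windows and held the core in 1, and Gclc, Hmox1 and Gsr had no window. Since the members were picked with their calls known, nothing is read from the match.

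**Figure D3:**
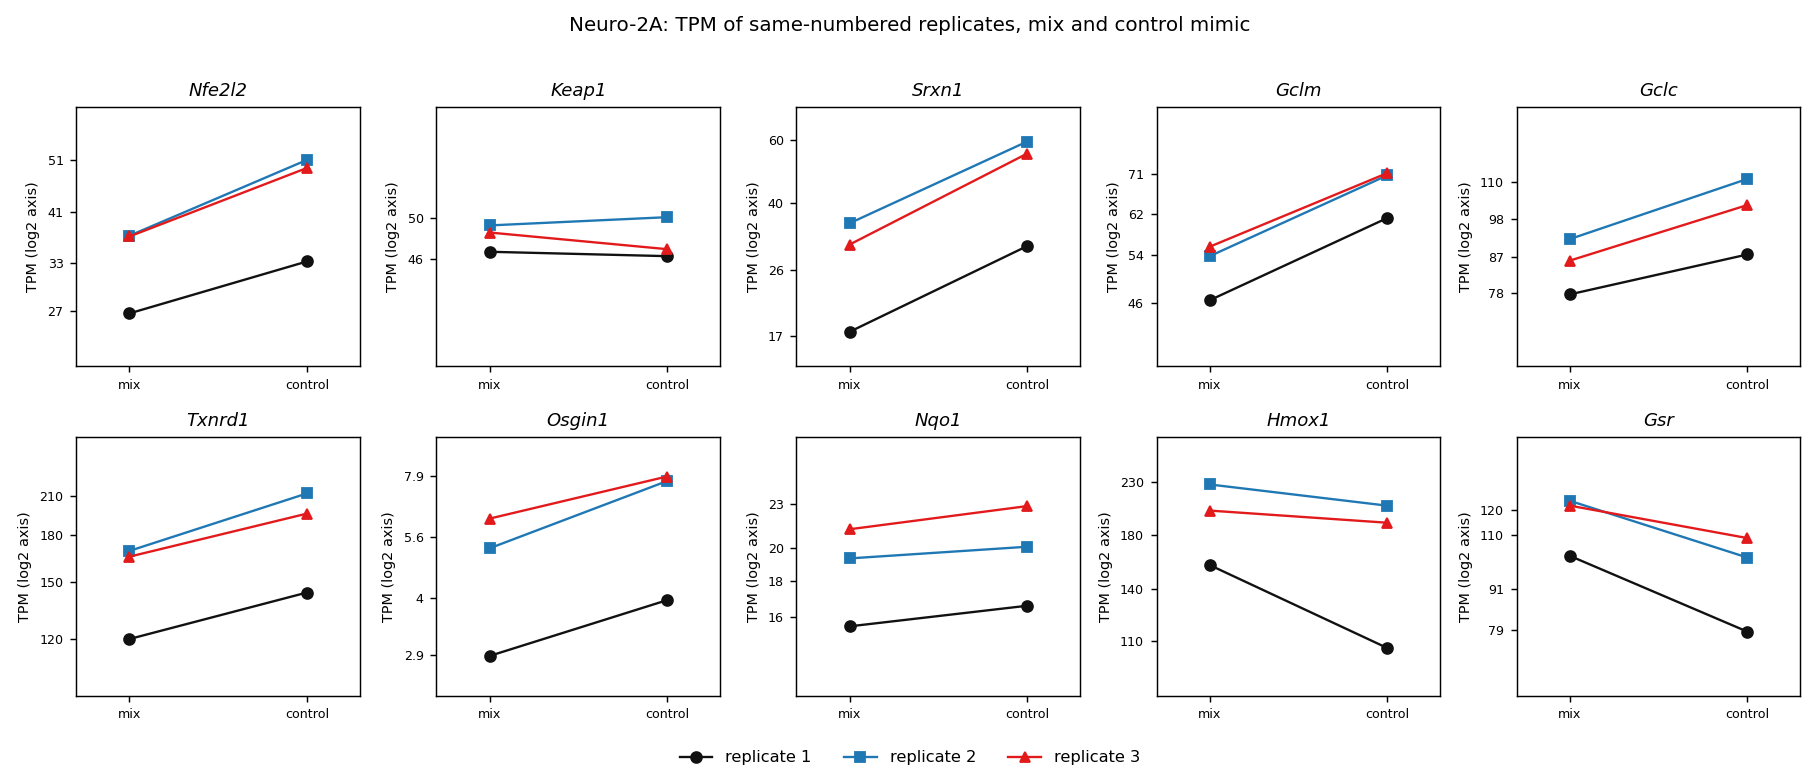
TPM of the members in Neuro-2A (log-scaled vertical axes), with the mix left of the control mimic and a line joining the libraries of the same number. Replicate 1 lies lowest in both arms for Nfe2l2, Srxn1, Gclm, Gclc, Txnrd1 and Osgin1, and all 3 lines of each of these run upward to the control mimic.

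The order of levels across groups differed between the members. For Nfe2l2 and for Srxn1 the order by group mean was control astrocytes, control BV-2, mix-treated astrocytes, mix-treated BV-2, control Neuro-2A and mix-treated Neuro-2A. Neighbours in that order did not overlap apart from the Neuro-2A arms. Mix-treated astrocytes thus had less Nfe2l2 and Srxn1 than control BV-2 cells. Gclm was highest in control astrocytes, at 114 ± 4.3 TPM (SD, n = 3), followed by mix-treated astrocytes and control Neuro-2A cells, which overlapped. Mix-treated Neuro-2A and control BV-2 cells came next and overlapped, and mix-treated BV-2 cells were lowest, at 20.7 ± 1.74 TPM. Gclc was highest in control astrocytes and next in mix-treated astrocytes, while both arms of Neuro-2A and of BV-2 overlapped in a row.

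Hmox1 reached the highest level of any member, 782 to 818 TPM in the control astrocyte libraries, followed by mix-treated astrocytes, both BV-2 arms and both Neuro-2A arms. The 2 arms of each line overlapped. Gsr had another order, with mix-treated BV-2 cells highest at 157 ± 4.82 TPM and control astrocytes lowest at 56.8 ± 2.58 TPM. Control BV-2 and mix-treated Neuro-2A cells overlapped, as did mix-treated astrocytes and control Neuro-2A cells. All neighbouring groups overlapped for Txnrd1. Nqo1 was highest in control astrocytes, at 28.5 ± 2.0 TPM, and both BV-2 arms were lowest and overlapped. Osgin1 was highest in control BV-2 cells, at 26.8 ± 0.866 TPM, and lowest in the 2 overlapping Neuro-2A arms. Keap1 was highest in astrocytes and lowest in BV-2, and its 2 arms overlapped in each cell type.

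The genes most like Nfe2l2 were sought by the Pearson correlation of log2 CPM over the 18 libraries after each cell type's mean was removed. The 18 points share 3 cell types, 2 arms and, in Neuro-2A, a replicate number, so the values are descriptions. The means of the arms were not removed. The correlations therefore also carry the differences between mix and control mimic that were known when the members were chosen. Of the 12626 genes compared, those named here are protein-coding with symbols other than Gm or Rik names. The 5 highest of these were Ctnna1 (r = 0.974), Dirc2 (0.971), Gpr146 (0.968), Slc7a11 (0.967) and Rasa1 (0.964). Ctnna1 encodes an adherens junction catenin, Slc7a11 the cystine importer that feeds glutathione synthesis, and Rasa1 a Ras GTPase-activating protein. Gpr146, an orphan receptor gene, had a log2 fold change of −1.36 ± 0.0441 in astrocytes, −0.74 ± 0.0801 in BV-2 and −0.81 ± 0.0822 in Neuro-2A, and Rasa1 had −0.72 ± 0.0401, −0.47 ± 0.0604 and −0.56 ± 0.0346 in the same order. Among the members, r was 0.946 for Srxn1 (rank 19), 0.935 for Gclc (rank 38), 0.91 for Gclm (rank 86) and 0.817 for Txnrd1 (rank 499). The ranks of members are over all 12626 genes, without that limit on names. For the other members r was lower. It was 0.712 for Nqo1, 0.637 for Hmox1, 0.597 for Osgin1 and 0.123 for Keap1. Gsr had −0.629 and ranked 11144.

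The wider pathway was described with 3 lists written from textbook knowledge after an earlier report on these data had been read. Of 27 other NRF2 targets, 26 were tested in astrocytes, and 13 fell, 3 rose and 10 were not called, where 20.6% of all tested genes were called lower and 19.7% higher. In Neuro-2A 22 were tested, of which 10 fell, 2 rose and 10 were not called (19.5% lower and 18.2% higher over all genes). In BV-2 23 were tested, of which 11 fell, 2 rose and 10 were not called (5.41% lower and 4.61% higher over all genes). With the replicate block in astrocytes, 16 targets were called lower and 3 higher. The list medians were −0.12, −0.14 and −0.11 on the log2 scale in these 3 cell types, beside the medians near 0 over all genes given above. Without the block, 3 of the 12 genes called in Neuro-2A still passed the threshold, Fth1, Pgd and Slc7a11. Those called lower in all 3 cell types were Blvrb, Cat, Fth1, G6pdx, Pgd, Slc48a1 and Slc7a11, 7 of the 19 tested in all, against 3.12% of all genes, and Ugdh was the 1 called higher in all, against 2.16% of all genes. The UTR of Slc48a1, a haem transporter gene, held 1 match to miR-199a-3p.

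Slc7a11 averaged 9.68 ± 1.2 TPM in mix-treated and 24.6 ± 2.88 TPM in control astrocytes (SD, n = 3), a log2 fold change of −1.41 ± 0.0882 with an adjusted p of 9.62e-08 (edgeR quasi-likelihood test, Benjamini-Hochberg over all genes, as for the p-values below). It fell by 0.99 ± 0.0747 on the log2 scale in BV-2 (adjusted p = 0.000149) and by 0.66 ± 0.0368 in Neuro-2A (adjusted p = 2.52e-08). Fth1, the heavy chain of the iron store ferritin, had log2 fold changes of −1.72 ± 0.0616 in Neuro-2A (adjusted p = 7.71e-10), −0.85 ± 0.0377 in astrocytes (adjusted p = 5.55e-09) and −1.04 ± 0.0625 in BV-2 (adjusted p = 8.42e-05), although its many processed pseudogenes make the assignment of its reads uncertain. Blvrb, which encodes biliverdin reductase B, fell to 45.6 ± 1.46 TPM in mix-treated BV-2 cells, against 77.2 ± 4.73 TPM in control BV-2 cells (log2 fold change −0.83 ± 0.0693, adjusted p = 0.000248). Cat, which encodes catalase, fell to 161 ± 2.77 TPM with the mix in BV-2, against 230 ± 14.4 TPM with the control mimic (log2 fold change −0.58 ± 0.0503, adjusted p = 0.000274). The NADPH-producing enzymes G6pdx and Pgd of the pentose phosphate pathway had log2 fold changes of −0.39 ± 0.039 (adjusted p = 4.06e-06) and −0.30 ± 0.0328 (adjusted p = 9.49e-06) in Neuro-2A. The glutathione transferase Gsta4 had −0.40 ± 0.0321 in astrocytes (adjusted p = 7.66e-07).

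Of 14 regulators and partners of NRF2, 13 were tested in Neuro-2A, and 6 fell, 3 rose and 4 were not called, where 19.5% of all genes were called lower and 18.2% higher. In astrocytes 5 of 14 fell, 3 rose and 6 were not called, where 20.6% of all genes were called lower and 19.7% higher. In BV-2 3 of 12 fell and 9 were not called (5.41% lower and 4.61% higher over all genes). None rose there at an unadjusted p under 0.05 with edgeR, DESeq2 or limma. The shares of rises in Neuro-2A and astrocytes were near those over all genes. The medians were −0.09, −0.06 and −0.12. Without the block, 2 of the 9 genes called in Neuro-2A still passed the threshold, Btrc and Gsk3b. Bach1 and Gsk3b were the 2 called lower in all 3 cell types, of 12 tested in all, against 3.12% of all genes. Bach1 encodes a repressor that competes with NRF2 for the elements, and it averaged 17.6 ± 1.43 TPM in mix-treated and 27.8 ± 0.607 TPM in control astrocytes (log2 fold change −0.73 ± 0.0525, adjusted p = 3.33e-07). Its log2 fold changes were −0.28 ± 0.0427 in Neuro-2A (adjusted p = 0.000162) and −0.30 ± 0.0678 in BV-2 (adjusted p = 0.0251). Gsk3b encodes a kinase that marks NRF2 for degradation apart from KEAP1, and its UTR held 1 match to miR-199a-3p and 2 to miR-99b-3p. It averaged 49.4 ± 7.05 TPM in mix-treated and 75.8 ± 7.38 TPM in control Neuro-2A cells (log2 fold change −0.60 ± 0.0356, adjusted p = 3.48e-08), with log2 fold changes of −0.31 ± 0.0368 in astrocytes (adjusted p = 2.33e-05) and −0.32 ± 0.0763 in BV-2 (adjusted p = 0.0317). Sqstm1, whose protein is an autophagy receptor that binds KEAP1, fell in BV-2, to 502 ± 12.9 TPM with the mix against 612 ± 19.8 TPM with the control mimic (log2 fold change −0.36 ± 0.0565, adjusted p = 0.0056). It rose in the other cell types, with log2 fold changes of 0.15 ± 0.0383 in Neuro-2A (adjusted p = 0.00599) and 0.10 ± 0.0298 in astrocytes (adjusted p = 0.0197). In BV-2 no regulator passed the threshold without mix replicate 2, where 5 had an unadjusted p under 0.05 with edgeR, and 1 passed without mix replicate 1, mix replicate 3 or control replicate 3. In astrocytes 5 regulators passed without control replicate 3.

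Of 18 enzymes of glutathione and peroxide metabolism that are not counted as classical NRF2 targets here, 16 were tested in Neuro-2A, and 1 fell, 8 rose and 7 were not called, where 19.5% of all genes were called lower and 18.2% higher. In astrocytes 2 of 18 fell, 4 rose and 12 were not called, where 20.6% of all genes were called lower and 19.7% higher. In BV-2 2 of 16 fell and 14 were not called (5.41% lower and 4.61% higher over all genes). None rose there at an unadjusted p under 0.05 with edgeR or DESeq2, and 2 did with limma. The medians were 0.11, 0.03 and −0.01, and in Neuro-2A 1 of the 9 calls, that of Prdx6, remained without the block. Prdx6, a peroxiredoxin that reduces phospholipid peroxides, was the 1 called lower in all 3 cell types, of 16 tested in all, against 3.12% of all genes. It averaged 86.9 ± 3.3 TPM in mix-treated and 150 ± 11.2 TPM in control Neuro-2A cells (log2 fold change −0.77 ± 0.0339, adjusted p = 3.33e-09). In astrocytes it averaged 859 ± 25.4 TPM with the mix and 1347 ± 19.3 TPM with the control mimic (log2 fold change −0.71 ± 0.0321, adjusted p = 6.42e-09). In BV-2 it averaged 88.1 ± 2.83 TPM with the mix and 101 ± 6.52 TPM with the control mimic (log2 fold change −0.27 ± 0.0696, adjusted p = 0.0415). Its UTR held 1 match to miR-199a-3p. The list's other matches were 1 to miR-99b-3p in Gpx4, a phospholipid hydroperoxide reductase, and 1 to miR-199a-3p in Sod2, the mitochondrial superoxide dismutase. Both of these rose in Neuro-2A, with log2 fold changes of 0.16 ± 0.0328 for Gpx4 (adjusted p = 0.00141) and 0.14 ± 0.0393 for Sod2 (adjusted p = 0.0128). Neither was called elsewhere. Gpx4 had 0.04 ± 0.0345 in astrocytes and −0.04 ± 0.0716 in BV-2, and Sod2 had −0.01 ± 0.0345 and 0.07 ± 0.0929 in the same order. Gsto1, a glutathione transferase of the omega class, rose in Neuro-2A, to 26.4 ± 2.79 TPM with the mix against 19.3 ± 3.27 TPM with the control mimic (log2 fold change 0.47 ± 0.0684, adjusted p = 0.000111). Gss, which completes glutathione synthesis, fell in BV-2 to 10.7 ± 0.351 TPM with the mix against 13.3 ± 0.615 TPM with the control mimic (log2 fold change −0.38 ± 0.0621, adjusted p = 0.0067). The count in Neuro-2A was 5 without replicate 2 and 4 without replicate 3. In BV-2 no enzyme passed the threshold without mix replicate 2, where 3 had an unadjusted p under 0.05 with edgeR, 1 passed without mix replicate 1 or 3, and 4 passed without control replicate 2.

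**Figure D4:**
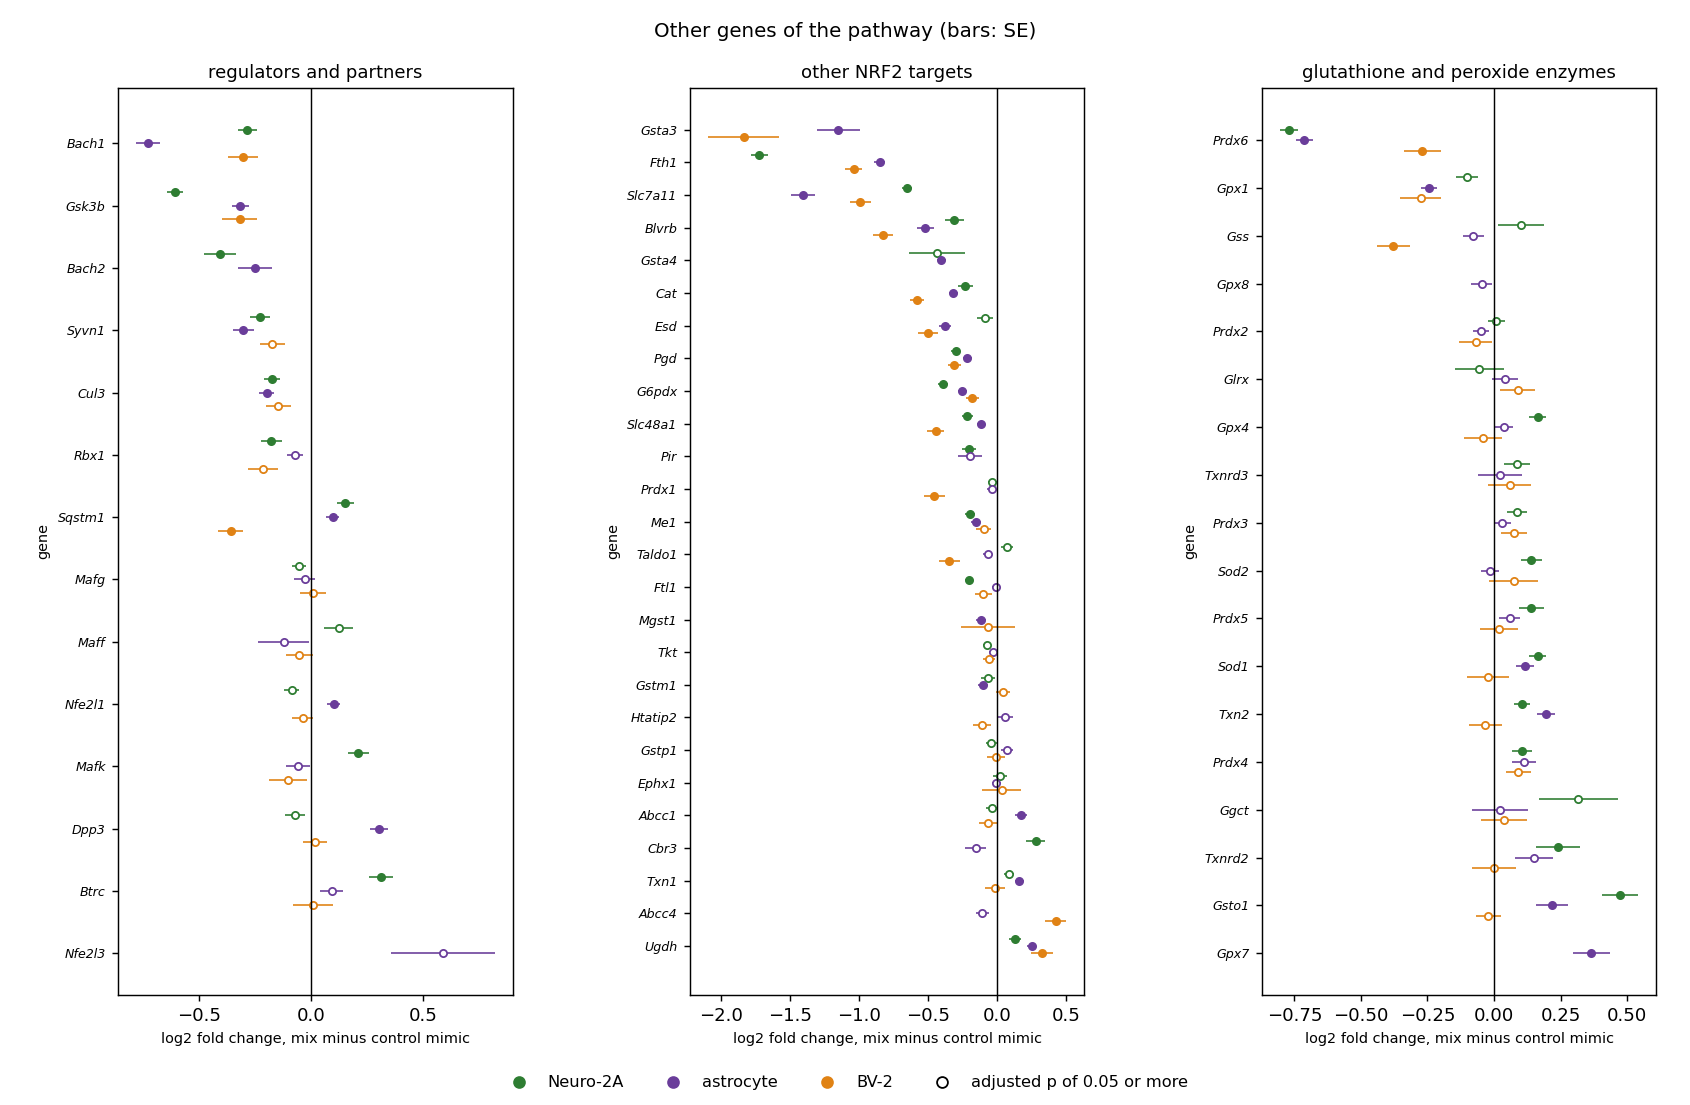
Log2 fold change (horizontal axis, mix minus control mimic, edgeR) of every tested gene of the 3 pathway lists in each cell type, 1 row per gene; bars are SE, and filled points had an adjusted p under 0.05. In the other NRF2 targets 13 of 26 fell in astrocytes (20.6% of all tested genes), 10 of 22 in Neuro-2A (19.5%) and 11 of 23 in BV-2 (5.41%). Of the glutathione and peroxide enzymes 8 of 16 rose in Neuro-2A (18.2% of all tested genes), and no such rise was called without the replicate block.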

How the data were processed

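Poly(A) RNA of 18 libraries was sequenced after preparation with the NEBNext Ultra II Directional kit, per the labels' protocols. The submitters' processing notes list mm10 as the build and STAR 2.7.10b and Trimmomatic 0.39 as tools. Which tool counted the reads, with which strand setting and annotation, is not given in the sources used here. Expected counts per gene were deposited by the authors, of which 35.67% to 42.35% per library were not whole, and log2 TPM with every TPM of 1 or less set to 0 on the log2 scale. TPM here are 2 to the power of those values, so 1 is a floor.

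Each cell type was fitted on its own, on rounded expected counts, in edgeR 4.0.16 under R 4.3.3 (filterByExpr with a minimum count of 10, TMM, quasi-likelihood test, Benjamini-Hochberg adjustment over all tested genes, threshold 0.05), with the replicate number as a block in Neuro-2A and no block in the other cell types. The script was tested on simulated counts. The SE of a fold change is its size divided by the square root of the F statistic. Totals of 18.5 to 27.9 M limit the precision of genes with low counts. No library repeated another, with a chi-square per degree of freedom of 1.61 or more between replicates.

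The sample descriptions give both arms of a cell type the same 3 library numbers, which follow the replicate order of the titles. Deviations from the group means correlated between same-numbered replicates at 0.604 to 0.822 in Neuro-2A, 0.293 to 0.496 in astrocytes and −0.05 to 0.322 in BV-2. Differently numbered replicates gave −0.782 to 0.474, −0.448 to −0.113 and −0.473 to 0.495 in the same order. Same-numbered values thus lay above all others in Neuro-2A and astrocytes but not in BV-2, and only the Neuro-2A fit was planned with the block. Neuro-2A replicates 2 and 3 were less clearly paired, since mix replicate 2 with control replicate 3 gave 0.474 and mix replicate 3 with control replicate 2 gave 0.294.

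The members and lists were chosen with earlier results of these data known. Named beside all members were genes from the up to 4 called per list and cell type with the smallest adjusted p. Of these genes, Bach2 (log2 fold change −0.41) and Sod1 (0.16) in Neuro-2A were not named above. Nor were Dpp3 (0.30), Syvn1 (−0.30), Gpx1 (−0.24), Txn2 (0.20) and Gpx7 (0.37) in astrocytes. The 5 named protein-coding genes most correlated with Nfe2l2 and the most abundant marker of each cell type were also named. Genes called in all 3 cell types and genes with a seed match were named after their values were seen. The same holds for the fibroblast and oligodendrocyte lineage markers, Map2, Snap25, Aldh1l1 and Rsph1. The second most abundant markers were Gap43 in Neuro-2A (192 to 277 TPM), Aqp4 in astrocytes (658 to 1870 TPM) and Tyrobp in BV-2 (937 to 1060 TPM). Itgam had 2 rows and was left out of the marker sums. Alternatives were DESeq2 1.42.0, limma 3.58.1 on log2(TPM + 1) for genes above 1 TPM in at least 3 libraries, DESeq2 size factors, no filter, the other block setting, all 18 libraries in 1 fit, and each replicate left out. A single result of the seed search is not reported here.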

Additional observations from a re-analysis of the deposited data

Results flagged for a closer look

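The effect of the mix was compared between the cell types in 1 joint edgeR model of the 18 libraries, adjusted over 20308 genes and without a replicate block, so the pairing of the Neuro-2A libraries was not used. The members were chosen with the 3 effects known, so the differences are values to look at again. Gclm fell less in Neuro-2A than in BV-2, by a difference of 0.72 ± 0.124 in log2 fold change (Neuro-2A minus BV-2), and fell more in astrocytes than in Neuro-2A, by −0.43 ± 0.12 (astrocyte minus Neuro-2A). Gsr rose more in astrocytes than in the other cell types, by 0.52 ± 0.13 against BV-2 and 0.48 ± 0.131 against Neuro-2A. These 4 differences passed the adjusted threshold, as did 3.51% of all genes for Neuro-2A minus BV-2, 7.05% for astrocyte minus BV-2 and 4.68% for astrocyte minus Neuro-2A. For the other 8 members no difference passed it in this unpaired model.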

How the results depend on the processing

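No direction of a called value reversed under any alternative. Of 22 called member values, 10 passed the threshold under every alternative run. Without the replicate block, the calls in Neuro-2A were 1 of 8 for the members, 2 of 9 for the regulators, 3 of 12 for the other targets and 1 of 9 for the glutathione and peroxide enzymes. All 18 libraries in 1 fit gave 4 members, 5 targets and 2 enzymes in Neuro-2A and 3 members (of 6) in BV-2. In astrocytes that fit gave 6 members (of 8), 4 regulators (of 8) and 9 targets (of 16). DESeq2 called 4 enzymes in Neuro-2A. Limma called 5 enzymes in Neuro-2A, 11 in astrocytes (6 with edgeR), and 1 regulator (of 3) and 1 enzyme (of 2) in BV-2. Leaving out 1 library or replicate pair at a time gave 4 to 6 enzymes in Neuro-2A, 5 to 8 regulators in astrocytes (5 without control replicate 3), and in BV-2 3 to 7 members, 0 to 4 regulators and 0 to 4 enzymes. The lowest BV-2 counts came without mix replicate 2, where 5 regulators and 3 enzymes had an unadjusted p under 0.05. Over all genes, the other block setting called 2083 genes in Neuro-2A (6101 with it), 8218 in astrocytes and 1493 in BV-2, and it changed no member's call in astrocytes, where 19 targets (16 without it) and 7 enzymes (6 without it) were called with it. For DESeq2, the joint fit and the fits with a library or pair left out, the calls over all genes are not given here. Losses under these alternatives therefore cannot be read as particular to the members or lists. The causes were not tested. Nqo1 in BV-2 rested on 27 to 61 counts per library, and its difference passed the threshold with no filter on low counts.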
